A study of Mus musculus with 2 samples.

Results

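Tubulins are the building blocks of microtubules, the hollow filaments that carry cargo along neurites and form the mitotic spindle. An alpha and a beta tubulin fold with the help of chaperones and cofactors, pair into a stable dimer, and the dimers join end to end. Neural cells express several isotypes of each, encoded by separate and closely related genes, and Tubb3 is widely used to mark neurons. The screen was read for 10 of these genes, 4 alpha tubulins (Tuba1a, Tuba1b, Tuba1c and Tuba4a) and 6 beta tubulins (Tubb2a, Tubb2b, Tubb3, Tubb4b, Tubb5 and Tubb6). They were taken at every probe set that carries 1 gene symbol, and that symbol is one of the 10. This rule gave 18 of 45037 probe sets and 8 of the 18193 genes with a symbol of their own. The genes were chosen on the log2 differences between the arrays, which were known when the list was made, so all values below are descriptions and none is a test.

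The cells were ANSO4E, a mouse neural stem cell line from a transgenic animal (eggs of the background C57BL/6JxSJL/JF1, BDF1 sperm), grown with basic FGF and EGF and infected with a pooled lentiviral siRNA library. The reference control received the library and no MNNG, and the survivors received the library and 500 µM MNNG (an alkylating agent that damages DNA) for 15 min, were grown out and were treated again. Library inserts were amplified by PCR with biotin and each condition was hybridized to 1 Affymetrix GeneChip mouse genome array, so no difference has a replicate check and no p-value is given. A signal is read here as the abundance of siRNA inserts against a gene in the culture, not as expression of tubulin. How well a probe set designed for a transcript reads a short insert was not tested. The siRNA and probe sequences were not used here.

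Most probe sets lay at a low level on both arrays, with a median log2 signal of 0.69 with the library alone and 0.74 after MNNG. At that level many probe sets hold the same number. In the reference control 46.7% of probe sets, and in the survivors 43.8%, carried a value that at least 100 probe sets share to all 6 decimals, and no such value exceeded 1.59. Paired values below give the reference control first (library alone) and the survivors second (after MNNG). Differences are survivors minus reference control on the log2 scale, and their median over all probe sets was 0.00. Differences of up to 1.30 in size were shared in the same way. The 18 hybridization controls, spiked bacterial and phage sequences, were all higher on the survivors' array, by a median of 2.77, so a direction given here holds for the deposited scale.

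Inserts read by the Tubb4b probe sets carried nearly all of the large differences among the listed tubulins at probe sets with 1 symbol. Of the 18 tubulin probe sets, 6 had a difference below -1 and 1 had a difference above 1. Over all probe sets 3.93% were below -1 and 3.75% were above 1. Of the 6 that were lower, 5 belonged to Tubb4b and 1 to Tuba4a, and the single higher one was also a Tubb4b probe set. Past -2.5 there were 4 of the 18, 3 of Tubb4b and 1 of Tuba4a, where 1.01% of all probe sets lay, and past 2.5 there were 0 beside 0.155%. The median difference of the 18 was -0.29. Without Tubb4b, a choice made after its values were seen, 12 probe sets were left, of which 1 was below -1 and 0 were above 1, with a median of 0.05.

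**Figure D1:**
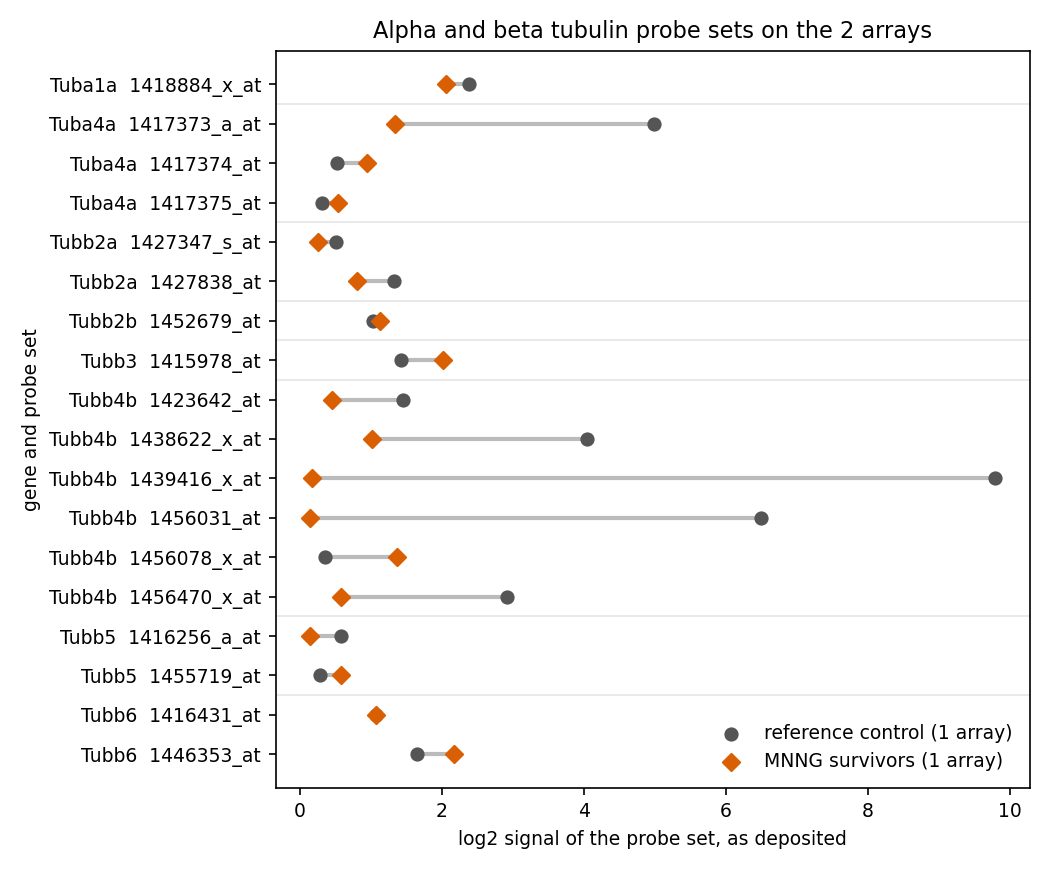
Log2 signal (horizontal axis) of each of the 18 tubulin probe sets (vertical axis) in the reference control (grey circles) and the MNNG survivors (orange diamonds), 1 array each, with a grey line joining the values of a probe set. Long lines appear for Tubb4b and for 1 probe set of Tuba4a, while the other probe sets differ by less than 0.6.

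Tubb4b encodes a beta tubulin found in most tissues and in cilia, and was earlier called Tubb2c. It was read by 6 probe sets. Probe set 1439416_x_at gave a log2 signal of 9.79 with the library alone and 0.17 after MNNG, a difference of -9.62, and only 2 of all 45037 probe sets had a lower one. On the linear scale this is a signal of 888 against 1.13. Probe set 1456031_at had 6.49 and 0.14, a difference of -6.35. These 2 were bright in the reference control and at the common low level in the survivors, where the value of 1456031_at was shared by 627 probe sets.

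Of the remaining 4 Tubb4b probe sets, 3 were also lower in the survivors. Probe set 1438622_x_at had 4.05 with the library alone and 1.02 after MNNG, a difference of -3.03. Probe set 1456470_x_at had 2.92 and 0.57, a difference of -2.35, and its value in the survivors was shared by 2302 probe sets, the commonest value on that array. Both ended at low signal from a reference level above it. Probe set 1423642_at had 1.46 and 0.46, a difference that lies just past -1. Probe set 1456078_x_at went the other way, with 0.36 and 1.37, a difference of 1.02. Both of these lay low on each array, in the range where values repeat.

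The Tubb4b probe sets therefore ran over 10.6 log2 units, from -9.62 to 1.02, with a median of -2.69. Of the 244 genes with 6 probe sets of their own, Tubb4b was the only one with 5 or more below -1, and the only one whose probe sets spread as widely or had as low a median. The median spread over these genes was 1.44, and 87 of them had at least 1 probe set below -1. Among the 393 genes with 6 or more, 2 had 3 or more below -2.5, Tubb4b and Slc25a5, which encodes a mitochondrial ADP/ATP carrier and had 3 of 8. These counts were chosen after the values were seen and are descriptions. The Tubb4b probe sets are annotated to a single gene, were read on the same arrays and are not independent of one another.

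In the names of Affymetrix probe sets, _at marks probes for a single transcript, _a_at probes shared by transcripts of 1 gene, _s_at probes shared by several genes, and _x_at a set in which some probes match other sequences. Of the 6 Tubb4b probe sets, 4 end in _x_at. Among these, the differences were -9.62, -3.03, -2.35 and 1.02. The pair that ends in _at had -6.35 and the value just past -1, so a large negative difference was also read without _x_at probe sets. Over the whole array 15.0% of 2441 probe sets ending in _x_at lay below -1, and 2.66% of 36082 ending in _at. Whether the Tubb4b probes also match inserts against other tubulins was not tested.

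Tuba4a encodes an alpha tubulin that is distinct in lacking the terminal tyrosine in its gene, and was read by 3 probe sets. Probe set 1417373_a_at gave a log2 signal of 4.98 with the library alone and 1.35 after MNNG, a difference of -3.64. The others did not share it. Probe set 1417374_at had 0.52 and 0.95, a difference of 0.43, and probe set 1417375_at had 0.31 and 0.54, a difference of 0.23. The difference of 0.43 was shared by 1931 probe sets and that of 0.23 by 1051.

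Most probe sets that were bright in the reference control were lower in the survivors across the array. At a reference level of at least 4.05, that of the third largest difference of Tubb4b, the array held 467 probe sets. Of these, 420 (89.9%) lay below -1 and 20 lay above 1, with a median difference of -4.40. The 4 tubulin probe sets at this level were 3 of Tubb4b and 1 of Tuba4a, and all 4 lay below -1, with a median of -4.99. The level was the lowest reference signal of Tubb4b probe sets past -2.5, so these 3 were below -1 by the choice of level. The part that brightness in the reference control plays in the Tubb4b and Tuba4a values was not tested.

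**Figure D2:**
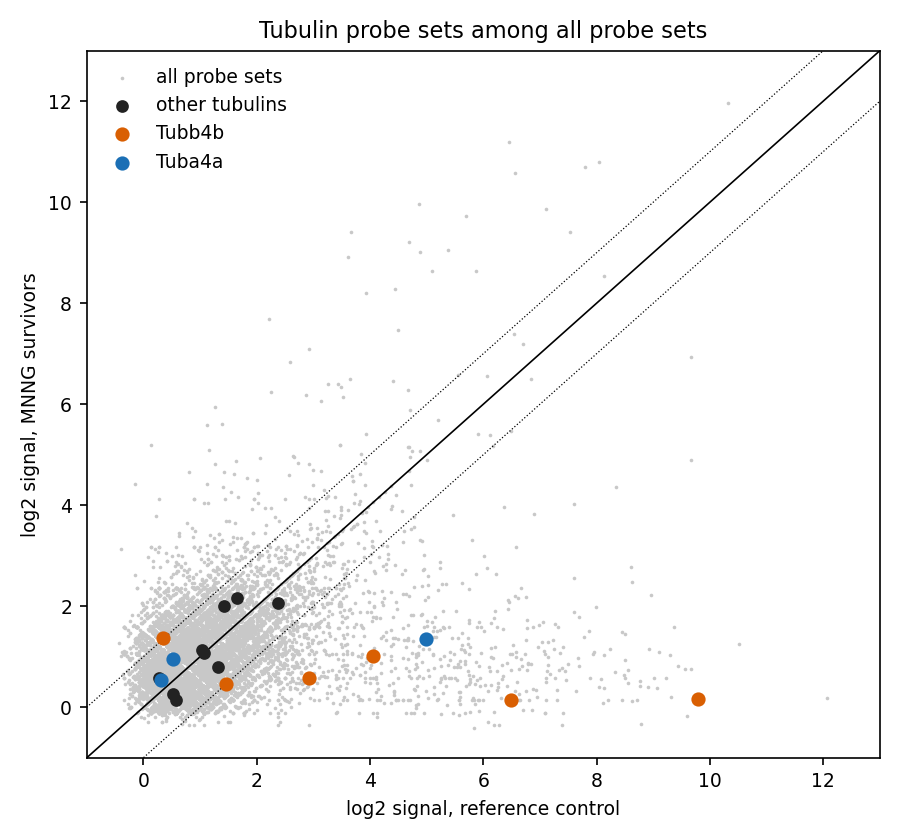
Log2 signal in the MNNG survivors (vertical axis) against the reference control (horizontal axis) for all 45037 probe sets (grey), with Tubb4b in orange, Tuba4a in blue and the other tubulins in black. The solid line marks equal values and the dotted lines log2 differences of 1 and -1. Along the bottom, 3 Tubb4b probe sets and 1 Tuba4a probe set lie at reference signals from 4.05 to 9.79 with many grey points.

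The remaining listed tubulins that have a probe set with 1 symbol stayed within 1 log2 unit of equality at each such probe set. Tuba1b and Tuba1c have none and are given below. Tuba1a, the alpha tubulin of newborn neurons, had 2.38 with the library alone and 2.06 after MNNG, a difference of -0.32 at a probe set ending in _x_at. The same difference was found for 1070 probe sets. For the alpha tubulins as a group, 1 of 4 probe sets lay below -1 and 0 above 1, beside 3.93% and 3.75% of all probe sets. The median of the 4 was -0.04. Of these 4, 3 belong to Tuba4a and 1 to Tuba1a, and probe sets with several symbols are left out.

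Among the beta tubulins outside Tubb4b, 8 probe sets had differences from -0.52 to 0.59, with 3 lower, 4 higher and 1 equal. Tubb3, the neuronal isotype, had 1.43 and 2.01, a difference of 0.59, the largest of the 8, and 277 probe sets shared this difference. Tubb2a and Tubb2b are near neighbours in the genome with 0 protein-coding genes between them. Tubb2a had 1.33 and 0.80 (-0.52) at 1427838_at and 0.52 and 0.26 (-0.25) at 1427347_s_at, so both of its probe sets were lower in the survivors. Tubb2b had 1.03 and 1.13, a difference of 0.10.

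Tubb5, the beta tubulin of most dividing cells, was lower at 1416256_a_at, with 0.57 and 0.14 (-0.43), and higher at 1455719_at, with 0.28 and 0.57 (0.29). All 4 of these signals are values that more than 100 probe sets share. Tubb6 was equal on both arrays (1.08) at 1416431_at, and 8737 probe sets over the array were equal too, and 1.65 and 2.17 (0.52) at 1446353_at. Of the 18 tubulin probe sets, 9 had a difference shared by at least 100 probe sets, and 0 of the 6 Tubb4b probe sets did.

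Tuba1b and Tuba1c had no probe set with 1 symbol. They lie beside Tuba1a in the genome, with 0 protein-coding genes between neighbours. In all, 5 probe sets carried several symbols with a listed tubulin among them, and they are assigned to no gene. Their differences ran from -1.49 to 2.61, with 2 lower, 2 higher and 1 equal. The highest, 1416128_at, carries the symbols Tuba1c and Gm6682. It had 3.53 with the library alone and 6.14 after MNNG, above the 2.5 that 0.155% of all probe sets exceeded. The lowest, 1423846_x_at, carries Tuba1b and Gm5620 and had 3.50 and 2.00. The reference signals of the 5 probe sets ran up to 4.71, at 1448232_x_at, which also carries Tuba1c and Gm6682 and had 4.96 in the survivors.

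Other tubulins, in a list that holds the remaining alpha and beta tubulins and the gamma, delta and epsilon tubulins of centrosomes and basal bodies, had 8 of 10 genes measured. With each gene at its probe set of highest mean signal, 1 was below -1 and 1 above 1, with a median of -0.32. Over all genes taken in this way 5.43% were below -1 and 4.78% above 1, with a median of 0.00. Tuba3b, an alpha tubulin of the testis, had 5.14 with the library alone and 0.79 after MNNG, a difference of -4.35 at its single probe set. Tubb1, the beta tubulin of platelets, had -0.33 and 1.11, a difference of 1.44. Tubb4a, a beta tubulin of neurons and oligodendrocytes, had 1.08 and 0.39 (-0.69), and Tubd1 had 1.26 and 0.57 (-0.69). The 2 probe sets of Tuba8 had differences of -0.49 and 0.68, the 3 of Tube1 ran from -0.14 to 0.43, and Tubg1 and both probe sets of Tubg2 stayed between -0.14 and 0.18.

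The 9 lists of tubulin partners held 76 genes, of which 74 were measured. At the probe set of highest mean 26 (35.1%) were lower in the survivors, 33 (44.6%) higher and 15 equal, beside 38.0% lower and 43.6% higher over all genes. Of the 74, 5 were below -1 and 3 above 1, beside 5.43% and 4.78% of all genes, with a median of 0.00. The chaperonin CCT, which folds tubulin and actin, had 9 of 9 genes between -0.49 and 0.70 at these probe sets, and over all 26 probe sets the range was -1.15 (Cct3) to 0.78 (Cct2). Prefoldin, which hands unfolded tubulin to CCT, had 4 of 6 genes equal on both arrays, while Pfdn5 had 4.13 and 1.07, a difference of -3.07 within a range over 5 probe sets that reached 0.29. Of 7 genes for folding cofactors, which assemble the dimer, Tbca had 3.20 and 1.33 (-1.87, with 4 probe sets up to 0.49) and Arl2 had 0.10 and 1.11 (1.02, with -0.68 at its other probe set).

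Of 10 microtubule-associated proteins, which bind the finished filament, 0 were past 1 in either direction at the probe set of highest mean, and of 6 severing enzymes, which cut it, likewise 0, where 5.43% of all genes were below -1 and 4.78% above 1. The largest differences were 0.91 for the axonal protein Mapt (tau), whose 4 probe sets ran down to -1.12, 0.78 for Map4 and 0.78 for Katna1, a subunit of katanin. Another probe set of Map7 lay at -1.18. Among 8 plus-end proteins Mapre2 (EB2) had 7.14 and 1.29, a difference of -5.86, and its 5 probe sets ran up to 0.68. Of 8 genes of the gamma tubulin ring complex, which nucleates microtubules, 6 were higher, with a median of 0.46, where 43.6% of all genes were higher. Nedd1 had 0.28 and 1.59 (1.30, and 0.33 at its other probe set), and Tubgcp4 had 0.57 and 1.59 (1.01, and no higher than that at the remaining ones of 3, down to 0). The paired signals given for Nedd1 and Tubgcp4 are values that at least 100 probe sets share. Among 4 stathmins, which sequester dimers, Stmn2 had 1.24 and 0.24, a difference just past -1, and -0.14 at its other probe set. Among 16 modifying enzymes Ttll11, which adds glutamate chains, had 2.98 and 1.86 (-1.12), and its 4 probe sets ran up to 0.78. The difference between these lists and the tubulins was not tested.

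**Figure D3:**
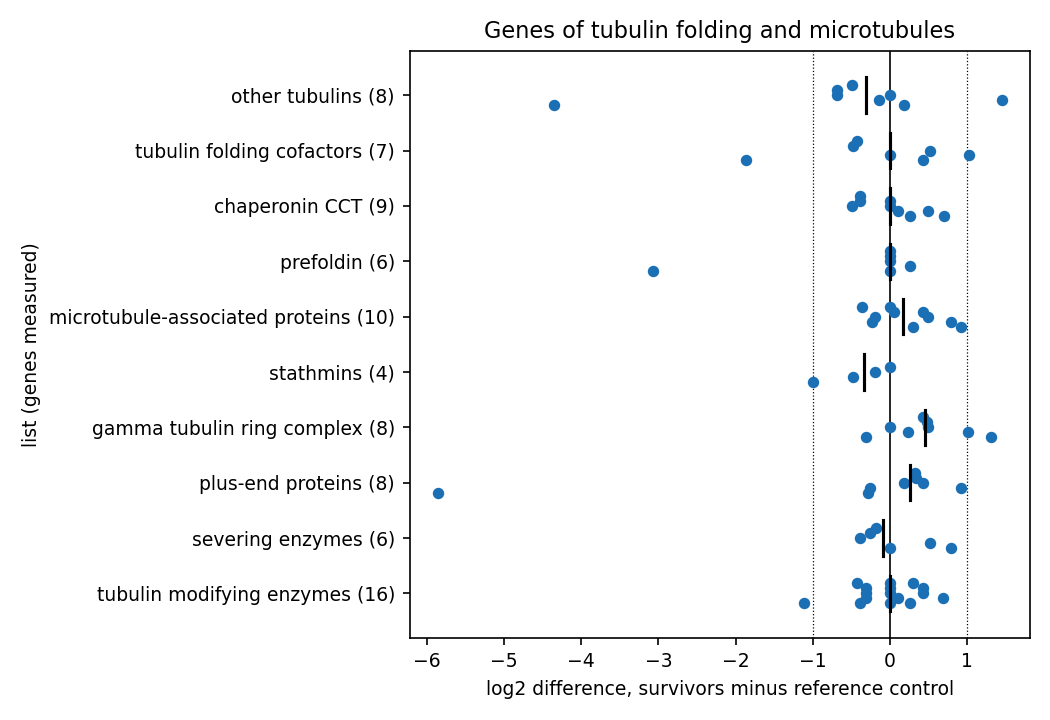
Log2 difference between survivors and reference control (horizontal axis) for each gene of the 10 related lists (vertical axis, with the number of genes measured), each gene at its probe set of highest mean signal; points are spread vertically for visibility, black bars are list medians and dotted lines mark 1 and -1. Most genes lie between the dotted lines, with Mapre2, Tuba3b and Pfdn5 far to the left.

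The 5 Tubb4b probe sets and 1 Tuba4a probe set that lay below -1 did so after median centering, quantile normalization and loess as well, and the difference of 1439416_x_at ran from -10.1 after quantile normalization to -7.15 after loess. The higher Tubb4b probe set, 1456078_x_at, lay at 0.97 after quantile normalization and 0.94 after loess, below the threshold. Centering on the hybridization controls moved all 18 probe sets below -1, together with 99.5% of all probe sets, and turned 1456078_x_at to -1.75.

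**Figure D4:**
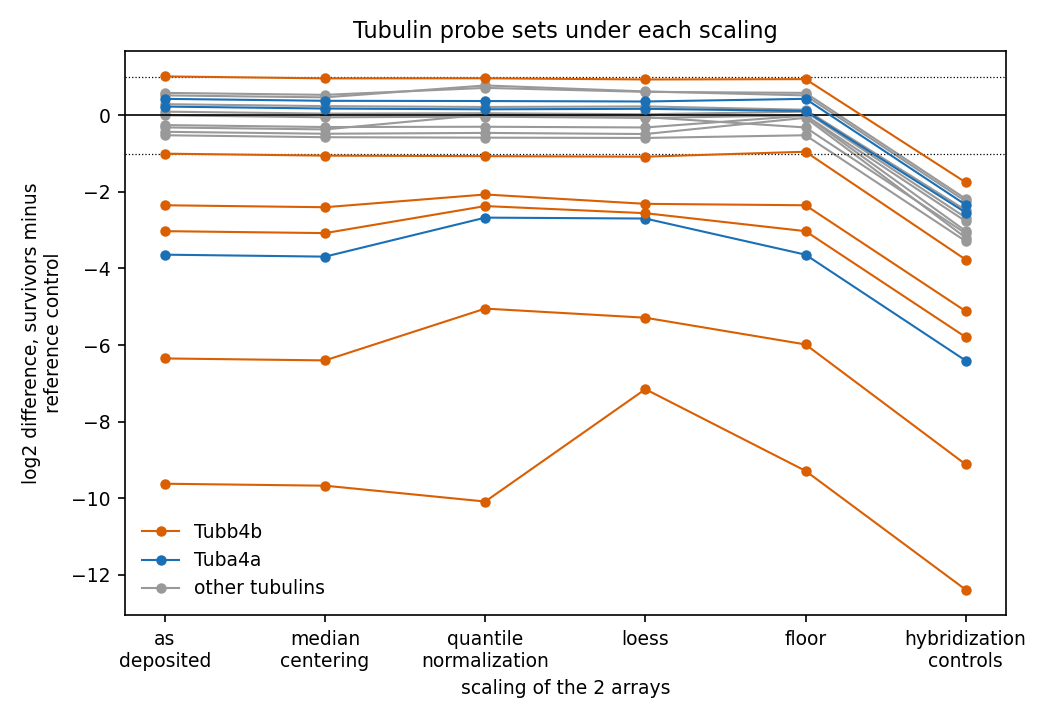
Log2 difference between survivors and reference control (vertical axis) for the 18 tubulin probe sets as deposited and under 5 other treatments of the arrays (horizontal axis), with lines joining a probe set; Tubb4b is orange, Tuba4a blue and the others grey, and dotted lines mark 1 and -1. The low Tubb4b and Tuba4a probe sets stay apart from the rest, and centering on the hybridization controls shifts every probe set down by 2.77.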

How the data were processed

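Inserts of a lentiviral siRNA library from reference control cells and MNNG survivors were read on 1 array each. The values deposited by the authors are log2 signals, 1 per probe set and array. RMA is the method in the submitters' processing notes, with software and version not stated there. The labels name genomic DNA as the template and the paper total RNA. Conditions came from the treatment labels. The 64 Affymetrix control probe sets were set aside, and differences were taken as survivors minus reference control. Symbols came from the annotation of the array and were brought up to date by gene ID, which matched 34741 of 34945 probe sets with 1 symbol, with the mouse assembly GRCm38.p6 used for names and neighbours only. Another 932 probe sets have several symbols and were assigned to no gene. No test was possible with 1 array per condition, and precision is limited by the number of arrays. Members, lists and thresholds were chosen with earlier results of these data known. All tubulins were named, with up to 3 genes of each related list by size of difference. The counts of repeated values, of probe sets by reference level and of genes with 6 probe sets were added after the values were seen. Alternatives covered 5 treatments of the arrays, the probe sets used and thresholds of 0.5 and 2.5. A change over 0.45 (the scaled median absolute deviation over all differences) counted as a move. Identity between tubulin proteins was not analysed here. The treatments of the arrays other than the floor, with the count past a log2 difference of 1, were run on simulated data. The other steps were not. Python 3.11.15, numpy 2.4.6, pandas 2.3.3, statsmodels 0.14.6 and matplotlib 3.10.9 were used.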

Additional observations from a re-analysis of the deposited data

How the results depend on the processing

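As deposited, 6 tubulin probe sets lay below -1 and 1 above 1. The number below -1 was 6 after median centering, quantile normalization and loess and 5 with a floor at the 25th percentile. Over all probe sets these treatments left 3.98%, 3.53%, 3.74% and 3.06% below -1. With other thresholds 4 lay past -2.5, beside 1.01% of all, and 7 past -0.5. Of all 45037 probe sets, 4818 lay below the -0.52 of a Tubb2a probe set. The number below -1 was 18 after centering on the hybridization controls, beside 99.5% of all. It was 3 without probe sets ending in _x_at or _s_at. These were 2 of 10 ending in _at, beside 2.66% of all, and 1 of 2 ending in _a_at, beside 6.82%. With 1 probe set a gene at the highest mean it was 2 of 8, beside 5.43% of all genes. It was 1 of 8 with the median within each gene, for which the share over all genes is not given here. Without Tubb4b it was 1 of 12, beside 3.93% of all probe sets. The last was chosen after seeing the data. The number above 1 was 3 past 0.5 and 0 under every other alternative. Of all 45037 probe sets, 38309 lay below the 0.52 of a Tubb6 probe set, the smallest of these 3. The median of -0.29 ran from -0.34 to 0.05 and that of the beta tubulins, -0.34, from -0.40 to 0.05, except for 0.19 at the probe sets of highest mean. The median of the alpha tubulins, -0.04, ran from -0.10 to 0.23, except for -1.98 at the probe sets of highest mean. Centering on the hybridization controls gave -3.05 for all tubulins, -2.81 for the alpha and -3.11 for the beta tubulins, and turned the Tubb4b probe set 1456078_x_at from 1.02 to -1.75. The counts per gene and without some probe sets are over fewer values than 18, and 5 of the 6 probe sets below -1 belonged to Tubb4b. The cause of the shifts was not tested. Of the 18 single differences, 4 moved after quantile normalization and 4 after loess, all without turning. No paired analysis was possible because each condition has 1 array. For the same reason no array could be left out.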
